A study of Saccharomyces cerevisiae with 6 samples.

Results

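The yeast cell wall genes described here number 10: the wall proteins PIR1, PIR3, HSP150, CIS3, CWP1 and SED1, the wall protease gene YPS3, the glucan synthase genes FKS1 and GSC2, and SLT2, which encodes a signalling kinase and no wall component. They were chosen by locus name, as 10 of the 5667 S. cerevisiae loci on the arrays, and each is read by 1 probe set that matches no other transcript according to its name. The study, in baker's yeast (Saccharomyces cerevisiae), hybridised RNA from precipitates of Mex67, the receptor that exports mRNA, of the mRNA-binding protein Npl3, and of cells with no tagged protein (a mock precipitation). Cells of strain HKY1266 gave the Mex67 precipitates, strain HKY157 the Npl3 precipitates and HKY36/HKY381 the no tag precipitates. All were grown in rich medium at 25 °C, held for 30 min at 25 °C or 42 °C and crosslinked with UV light, and every lysate met both c-myc antibody beads and GFP-Trap beads. The labels do not give the genotypes, which tag each protein carried, or whether the HKY36 and HKY381 cells were pooled.

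Each of the 6 groups is 1 array. There is no replicate, so no difference below has a test, a p-value or an error, and the number of arrays limits the precision. A value is the authors' log2 signal, and a difference is one log2 value minus another, so that 1 stands for 2-fold. The columns were assigned to temperatures by taking S to mean stressed and US unstressed, a reading that the labels leave unstated. The 7 chaperone and stress genes chosen to check it (HSP26, SSA4, HSP104, HSP42, HSP78, HSP82 and HSP12) were at least 2-fold higher on the S array of all 3 pairs.

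The yeast wall is a mesh of beta-glucan and chitin covered by mannoproteins. Glucan is made at the plasma membrane by a synthase whose catalytic subunit is Fks1 in growing cells or its close relative Gsc2 (also called Fks2) under stress and in sporulation. PIR proteins (proteins with internal repeats) are bound directly to glucan, whereas proteins such as Cwp1 and Sed1 arrive by way of a GPI anchor. Heat weakens the wall and activates the cell wall integrity (CWI) pathway, in which membrane sensors, Rho1, Pkc1 and a kinase cascade lead to the MAP kinase Slt2, which acts on the transcription factor Rlm1. PIR genes, CWP1, SED1 and GSC2 are among the genes known to respond to this pathway.

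Several features of the arrays touch the values below. All 10 genes lay above the background floor on all 6 arrays, the floor being the 95th percentile of S. pombe probe sets on each array, at 4.997 to 5.12. The highest value of any probe set was 15.36 to 15.43, so genes near 14.5 had little room upwards. Labelling spikes, bacterial RNAs read by 36 probe sets, had a median of 6.64 to 6.65 in the no tag arrays and 6.35 for Mex67 at 25 °C, but 5.01 for Mex67 at 42 °C and 5.22 and 5.40 for Npl3 at 25 °C and 42 °C. The actin mRNA read higher at its 3' end than at its 5' end, by 0.41 and 0.43 in no tag, 0.44 and 0.82 in Mex67 and 1.19 and 1.10 in Npl3, at 25 °C and 42 °C in turn. The strains also differed in mating type genes: at 25 °C, STE2 was higher by 5.36 in Mex67 and 5.37 in Npl3 than in no tag, and MF(ALPHA)1 lower, at -7.82 and -6.40. Strain, precipitated protein and array therefore cannot be told apart, and since no array of total RNA was analysed here, neither can more of an mRNA in the cells and more of it in the precipitate. The part of spikes, actin ends and strain in the results was not tested.

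**Figure D1:**
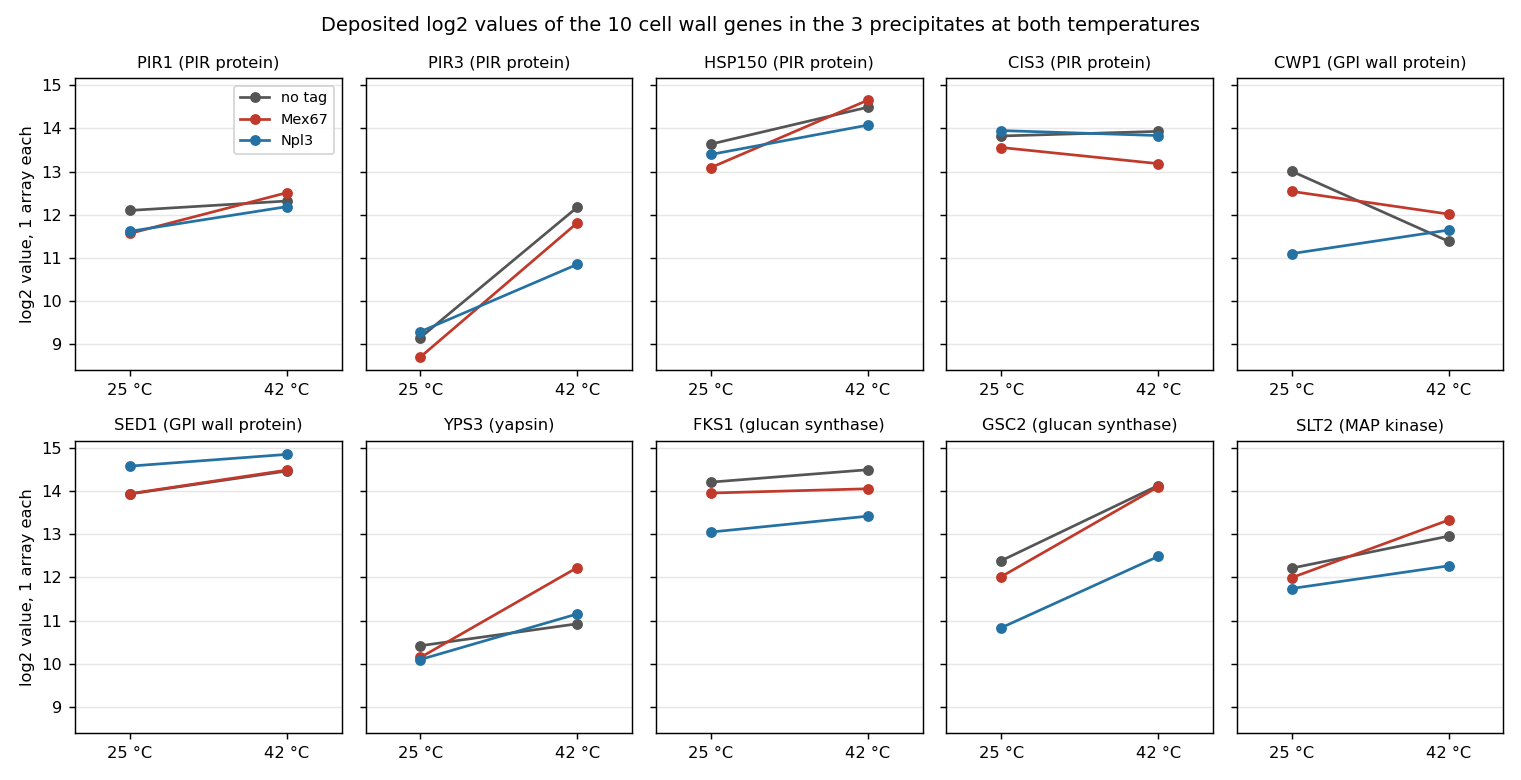
Deposited log2 values (vertical axis) of the 10 genes at 25 °C and 42 °C, with 1 point per array and lines joining the arrays of the no tag (grey), Mex67 (red) and Npl3 (blue) precipitates. PIR3 runs from 8.71 to 12.17, CIS3 stays between 13.18 and 13.95, and the CWP1 lines run downwards in no tag and Mex67 and upwards in Npl3.

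PIR3 and GSC2 were the only genes of the 10 that were at least 2-fold higher at 42 °C in all 3 precipitates. Among all 5632 loci that could be read in the 3 pairs, 72 (1.28%) did so. In the set, 8 of 10 genes were higher at 42 °C in every pair, where 29.9% of all loci were. The exceptions were CIS3 and CWP1. FKS1, counted among the 8, was at 0.10 in the Mex67 pair, or -0.27 once the trend with coding length was taken out. The share over all loci without that trend was not counted. In the no tag pair 2 of 10 genes were at least 2-fold higher, against 6.69% of 5647 loci, and 1 was at least 2-fold lower, against 2.07%. In the Mex67 pair 5 of 10 were higher, against 15.4% of 5650 loci, and 0 lower, against 12.2%. In the Npl3 pair 3 of 10 were higher, against 2.11% of 5634 loci, and 0 lower, against 1.38%. The median of the 10 genes was 0.52, 1.14 and 0.56 in these pairs, beside 0.00, 0.03 and 0.01 over all loci. The genes were chosen with such results known, so these shares describe the set and do not test it.

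**Figure D2:**
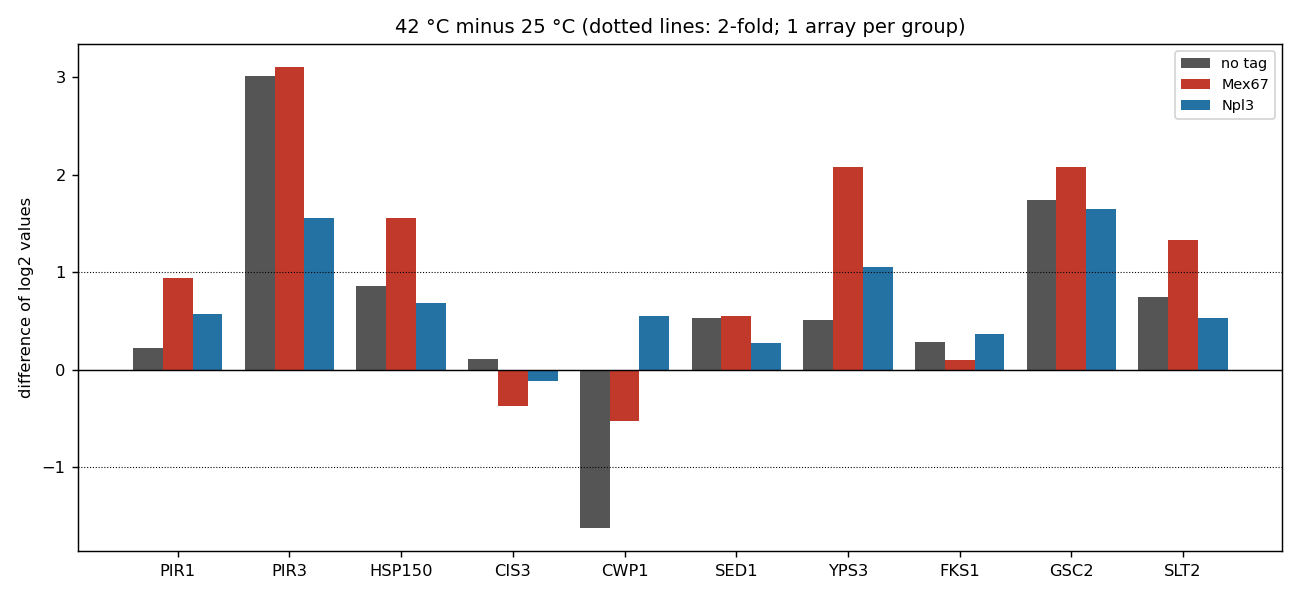
Difference of log2 values between 42 °C and 25 °C (vertical axis) for each gene in the no tag (grey), Mex67 (red) and Npl3 (blue) precipitates, 1 pair of arrays per bar, with dotted lines at 2-fold. PIR3 and GSC2 pass the upper line in all 3 precipitates, and CWP1 spans -1.62 to 0.55.

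Among the PIR genes, PIR3, which encodes an O-glycosylated wall protein, had the widest range. It was at 9.16 and 12.17 in no tag at 25 °C and 42 °C, at 8.71 and 11.81 in Mex67 and at 9.29 and 10.85 in Npl3. All 3 heated arrays lay above all 3 unheated ones, by 3.02, 3.10 and 1.56 within the pairs. In no tag this was the 19th highest difference of 5647 loci, in Mex67 the 42nd of 5650 and in Npl3 the 33rd of 5634. The heated Npl3 array was the lowest of the 3 heated ones, below no tag by 1.32 where the unheated Npl3 array was above it by 0.14. The share of all loci whose 3 heated arrays lay above all 3 unheated ones was not counted, for PIR3 or for the genes below.

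PIR1 encodes a close relative of Pir3. The 2 genes are neighbours in the R64 reference annotation, with names that place them on opposite strands (YKL164C and YKL163W) and transcribed away from each other. PIR1 was at 12.10 and 12.32 in no tag, 11.57 and 12.51 in Mex67 and 11.62 and 12.19 in Npl3. Its heat differences of 0.22, 0.94 and 0.57 were all under 2-fold, and the unheated no tag array lay within 0.1 of the heated Npl3 one. Over the 6 arrays, each gene centred on its own mean, PIR1 and PIR3 differed by a root mean square of 1.07 on the log2 scale, and 4583 of 5063 named loci lay nearer to PIR1 than PIR3 did.

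HSP150, also known as PIR2, encodes a secreted wall protein first described as a heat shock protein. It was at 13.64 and 14.49 in no tag, 13.09 and 14.65 in Mex67 and 13.40 and 14.08 in Npl3. Every heated array lay above every unheated one, by 0.85, 1.56 and 0.68 within pairs, and 2-fold was passed in Mex67 alone. HSP150 also has a PIR gene beside it that is transcribed the other way, PIR5 (YJL160C). PIR5 was at 8.30 and 9.06, 7.62 and 9.15, and 7.91 and 8.78 in no tag, Mex67 and Npl3. It was the second nearest of the 5063 loci to HSP150, at a root mean square difference of 0.08, after SMA2, a gene of spore membrane assembly, at 0.06. By this distance, which is not scaled to the range of a gene, HSP150 and PIR5 lay close together and PIR1 and PIR3 did not. The range over the arrays was 0.94 for PIR1 and 3.47 for PIR3, and both were higher at 42 °C in all 3 pairs.

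CIS3, or PIR4, lies on the other side of HSP150 and was the steadiest gene of the set, with a range of 0.77 over the arrays, against a median range of 1.41 over all loci. Its values were 13.82 and 13.93 in no tag, 13.56 and 13.18 in Mex67 and 13.95 and 13.83 in Npl3. Heat differences were 0.11, -0.37 and -0.12, of mixed sign, or 0.29, -0.008 and -0.08 without the trend with coding length. The heated Mex67 array was the lowest of the 6, below heated no tag by 0.75. The nearest loci were EPS1, PMP2 and SAY1, at 0.06, 0.06 and 0.08.

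The GPI wall protein genes went separate ways. CWP1, whose product is a mannoprotein found at birth scars, was the only gene of the 10 that was at least 2-fold lower at 42 °C in any pair. It was at 13.01 and 11.38 in no tag, 12.54 and 12.02 in Mex67, and 11.10 and 11.65 in Npl3. The unheated no tag array was the highest and the unheated Npl3 array the lowest. Heat differences were -1.62, -0.53 and 0.55, the first of these the 16th lowest of 5647 loci. Without the trend with coding length they were -1.45, -0.20 and 0.57. CWP1 at 25 °C was lower in Npl3 than in no tag by 1.91 on the log2 scale, the 61st lowest of 5639 loci, while at 42 °C it was higher by 0.26, or lower at -0.18 once the trend with coding length was taken out. CWP2, the wall protein gene next to it, was at 14.78 and 14.63, 14.76 and 14.00, and 14.83 and 14.74 on the same arrays.

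No locus lay close to CWP1 by root mean square difference. The 3 nearest of 5063 were the histone H3 gene HHT1, LSG1, which acts in biogenesis of the large ribosomal subunit, and HMG1, an enzyme of sterol synthesis, each at 0.33. By its nearest locus CWP1 lay further off than any other gene of the set. PIR3 came next, with GRE1 at 0.26, ahead of ARG56 and SDH9 at 0.37, both further off than any of the 3 for CWP1. The distance is not scaled, so a gene with a wide range can lie further from all others. Ranges over the arrays were 1.91 for CWP1 and 3.47 for PIR3, beside a median of 1.57 in the set.

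SED1, whose product is the main wall protein of stationary cells, was at 13.93 and 14.46 in no tag, 13.94 and 14.49 in Mex67 and 14.58 and 14.85 in Npl3. The Mex67 and no tag arrays differed by 0.01 at 25 °C and 0.02 at 42 °C. Both Npl3 arrays lay above the other 4, by 0.65 and 0.39 over no tag at the same temperature, while heat differences of 0.53, 0.55 and 0.27 stayed under 2-fold. SED1 was the only gene of the set that was higher in Npl3 than in no tag at both temperatures. At 14.85 it stood within 0.6 of the highest value of that array, 15.42. Its nearest loci were TGL2, a lipase gene, at 0.04, the proteasome subunit gene RPN5 at 0.08 and GAG1 at 0.09.

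YPS3, a yapsin, is a GPI-anchored aspartic protease that processes wall proteins. It was at 10.42 and 10.93 in no tag, 10.15 and 12.23 in Mex67 and 10.10 and 11.16 in Npl3. The 3 unheated arrays lay within 0.4 of each other and below the heated ones, among which Mex67 stood apart, above no tag by 1.30. Heat differences were 0.51, 2.08 and 1.05. The locus nearest to YPS3 was CHS1, a chitin synthase gene used in repair of the wall after division, at 0.18, followed by RCH1 at 0.20 and FES1, which helps Hsp70 release its nucleotide, at 0.21. CHS1 was at 11.42 and 12.42 in no tag, 11.21 and 13.43 in Mex67, and 11.43 and 12.19 in Npl3. YPS1, the yapsin gene beside YPS3 on the chromosome, was at 12.54 and 13.37, 12.09 and 14.26, and 12.77 and 13.16. The heated Mex67 array was the highest of the 6 for YPS3, CHS1 and YPS1, and likewise for PIR1, HSP150 and SLT2 of the set. It is also the array with the lowest labelling spikes.

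The glucan synthase genes FKS1 and GSC2 have nearly the same coding length, 5631 and 5688 bp, longer than 99% of loci, but differed in their heat differences. FKS1 was at 14.21 and 14.49 in no tag, 13.95 and 14.05 in Mex67 and 13.05 and 13.42 in Npl3. Its heat differences were 0.29, 0.10 and 0.37, so that the arrays were ordered by precipitate and not by temperature. With the length trend removed the Mex67 value was -0.27.

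GSC2 was at 12.39 and 14.13 in no tag, 12.02 and 14.10 in Mex67 and 10.84 and 12.49 in Npl3. Heat differences were 1.74, 2.08 and 1.65, or 1.50, 1.71 and 1.52 without the length trend, and in Npl3 this was the 29th highest of 5634 loci. Heated no tag and Mex67 arrays differed by 0.03. All heated arrays lay above all unheated ones, although heated Npl3 was only just above unheated no tag. GSC2 was nearest to HUL4, a ubiquitin ligase gene, at 0.24, AHA1, an activator of Hsp90, at 0.27 and the disaggregase gene HSP104 at 0.27. FKS1 was nearest to MMS22, NUP170 and RET1, at 0.05, 0.05 and 0.06. FKS1 and GSC2 were 0.84 apart, and 3589 of the 5063 loci were nearer to FKS1 than GSC2 was.

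SLT2 mRNA itself was at 12.22 and 12.96 in no tag, 11.996 and 13.33 in Mex67 and 11.74 and 12.27 in Npl3. Heat differences were 0.74, 1.33 and 0.52, higher in each pair and past 2-fold in Mex67. Every heated array lay above every unheated one, although unheated no tag and heated Npl3 were only 0.05 apart. SLT2 and HSP150 were the closest pair among the 10 genes, at a root mean square difference of 0.23, followed by PIR1 and HSP150 at 0.26 and PIR1 and SLT2 at 0.28. These distances rest on 6 arrays that share strains and labelling, and 35 of the 5063 loci were nearer to HSP150 than SLT2 was.

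The Mex67 precipitate was then set against no tag. At 25 °C 0 of the 10 genes differed at least 2-fold, where 0.746% of 5632 loci were higher and 0.657% lower by as much. Below 0 were 9 of 10 genes, where 2658 of 5632 loci were. These 9 lay between -0.22 for SLT2 and -0.54 for HSP150, and SED1 was at 0.01. At 42 °C 1 of 10 was at least 2-fold higher, YPS3 at 1.30, against 6.97% of 5650 loci, and 0 were lower, against 5.79%. CWP1 was at 0.63, SLT2 at 0.37, PIR1 at 0.19 and HSP150 at 0.16, while CIS3 was at -0.75, FKS1 at -0.44 and PIR3 at -0.36. The median of the set was -0.32 at 25 °C and 0.09 at 42 °C, beside 0.03 and 0.01 over all loci. YPS3, SLT2, PIR1, HSP150 and CWP1 were below no tag at 25 °C and above it at 42 °C. The share of all loci that changed sides in this way was not counted. The Mex67 arrays of these 2 comparisons lie on different sides of the gap in labelling spikes.

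**Figure D3:**
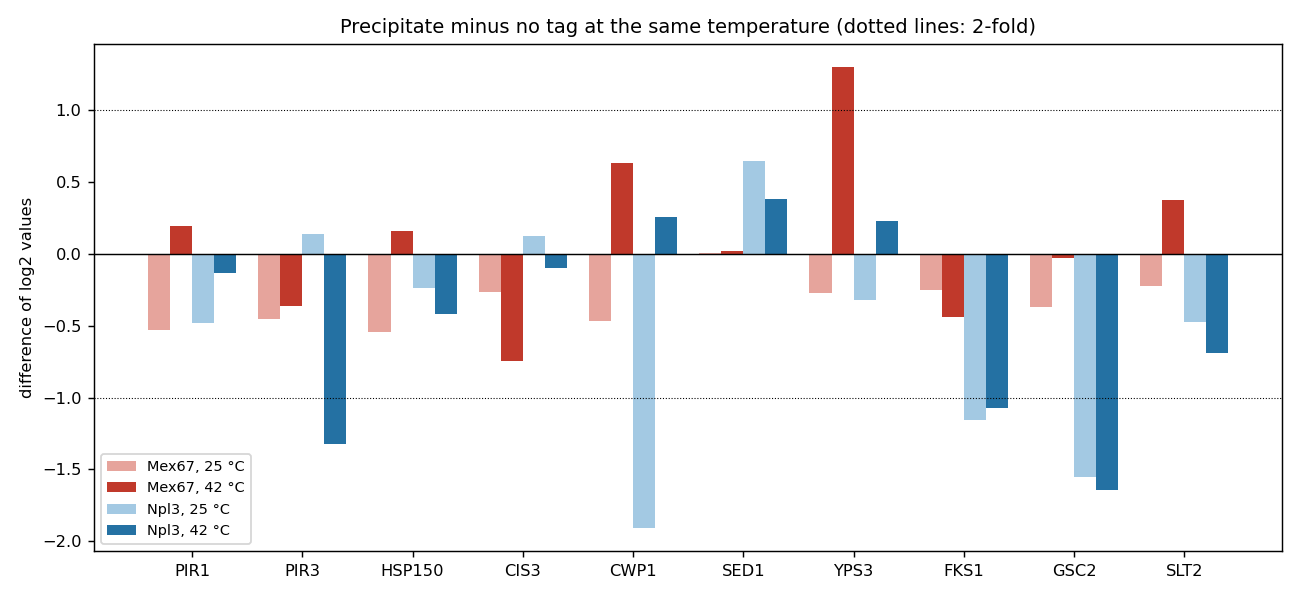
Difference of log2 values from the no tag array of the same temperature (vertical axis) for Mex67 (light and dark red, 25 °C and 42 °C) and Npl3 (light and dark blue), 1 array per group and gene, with dotted lines at 2-fold. YPS3 in heated Mex67, at 1.30, is the bar above the upper line, and CWP1 at 25 °C, PIR3 at 42 °C, and FKS1 and GSC2 at both temperatures, all in Npl3, pass the lower one.

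In the Npl3 precipitate the long glucan synthase mRNAs were lower than in no tag. At 25 °C 3 of 10 genes were at least 2-fold lower, CWP1 at -1.91, GSC2 at -1.55 and FKS1 at -1.16, against 15.1% of 5639 loci, and 0 were higher, against 18.1%. At 42 °C these were GSC2 at -1.64, PIR3 at -1.32 and FKS1 at -1.08, against 19.4% of 5648 loci, with 0 higher, against 18.7%. Shares of 15.1% and 19.4% correspond to 1 or 2 of 10 genes. Longer genes were lower in Npl3 as a whole: the 71 loci of at least 5000 bp, a limit chosen after the values were seen, had medians of -1.02 at 25 °C and -1.20 at 42 °C, close to FKS1 and above GSC2. The Npl3 arrays of this comparison had actin 3' minus 5' values of 1.19 and 1.10 against 0.41 and 0.43 in no tag. Without the trend with length FKS1 was at -0.16 and 0.05 and GSC2 at -0.54 and -0.51, under 2-fold, while CWP1 at 25 °C was at -2.27 and PIR3 at 42 °C at -1.35. The median over all loci was -0.08 at 25 °C and -0.14 at 42 °C.

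Mex67 and Npl3 were also compared directly. At 25 °C 2 of 10 genes were at least 2-fold higher in Mex67, CWP1 at 1.44 and GSC2 at 1.18, against 12.1% of 5641 loci, and 0 were lower, against 15.2%. At 42 °C 3 were higher, GSC2 at 1.61, YPS3 at 1.07 and SLT2 at 1.06, against 22.5% of 5649 loci, with 0 lower, against 20.2%. PIR3 was at 0.96 there. Without the length trend CWP1 was still past 2-fold at 25 °C, at 1.73, and GSC2 was not, at 0.35. At 42 °C GSC2, YPS3 and SLT2 were under 2-fold, at 0.54, 0.62 and 0.66, and PIR3 was past it, at 1.07.

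Heat differences of Mex67 and Npl3 were finally taken over that of no tag, which all comparisons of this kind share. In Mex67 2 of 10 genes were at least 2-fold higher, YPS3 at 1.57 and CWP1 at 1.10, against 5.06% of 5651 loci, and 0 were lower, against 5.4%. YPS3 was the 59th highest. PIR1 at 0.72, HSP150 at 0.71 and SLT2 at 0.59 followed, and PIR3 was at 0.09, or -0.01 after quantile normalization over the loci. In Npl3 1 gene was higher, CWP1 at 2.17, against 1.13% of 5649 loci, and 1 was lower, PIR3 at -1.46, against 4.3%. CWP1 was the 3rd highest of all loci and PIR3 the 98th lowest. GSC2 was at 0.34 in Mex67 and -0.09 in Npl3, and FKS1 at -0.19 and 0.08. In both CWP1 values the no tag heat difference of -1.62 enters with its sign turned.

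Other genes of the wall were read from lists chosen with earlier results of these data known. Of 23 genes of CWI signalling, 2 were at least 2-fold higher with heat in no tag, the sensor gene MTL1 at 1.13 and RLM1 at 1.10, and 0 lower, where 6.69% of all loci were higher and 2.07% lower. In Mex67, with 15.4% of all loci higher and 12.2% lower, 9 were higher, led by the phosphatase gene PTP2 at 2.14 and MTL1 at 1.82, and 1 lower, BEM2 at -1.03. In Npl3 0 of 23 differed 2-fold, where 2.11% of loci were higher and 1.38% lower. The list medians were 0.26, 0.63 and 0.10. RLM1, the target of Slt2, was at 10.78 and 11.89 in no tag, 11.59 and 13.09 in Mex67, and 13.08 and 13.51 in Npl3, so that the unheated Npl3 array stood as high as the heated Mex67 one.

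Other wall proteins went both ways with heat. In no tag 3 of 18 passed 2-fold upwards and 4 downwards, in Mex67 6 and 3, and in Npl3 2 and 1, with medians of 0.20, 0.75 and 0.21. Over all loci the shares higher and lower were 6.69% and 2.07%, 15.4% and 12.2%, and 2.11% and 1.38%, so the 3 of 18 lower in Mex67 are near the background. SPI1, a GPI protein of stressed cells, was at 1.44, 3.22 and 2.88, and PST1, a target of the CWI pathway, was at 1.41 in no tag, 0.99 in Mex67 and 1.88 in Npl3. At the other end were SRL1 at -1.71 and TIR1 at -1.54 in no tag, TIR1 at -2.57 and TOS6 at -2.04 in Mex67, and UTR2, a chitin transglycosylase gene, at -1.44 in Npl3. CWP1 was thus not alone among wall proteins in being lower in the heated no tag precipitate.

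Among 19 other genes of glucan synthesis and remodelling, few passed 2-fold with heat. FKS3, a relative of FKS1, was at 1.13 in no tag, EXG2 at 1.26, SCW10 at -1.31 and SCW4 at -1.26 in Mex67, and 0 of 19 differed 2-fold in Npl3. The medians, over members that went both ways, were 0.18, 0.12 and 0.23, or 0.09, -0.18 and 0.23 without the length trend. Of 9 chitin genes CHS1 was past 2-fold in no tag, at 1.00, and in Mex67, at 2.21. Of 4 other yapsins, YPS6 was at 1.29 in no tag, and 3 were past 2-fold in Mex67, with YPS1 at 2.17 and YPS6 at 2.10. In Npl3 0 of the 9 and 0 of the 4 were past 2-fold upwards. Over all loci 6.69% were higher and 2.07% lower in no tag, 15.4% and 12.2% in Mex67, and 2.11% and 1.38% in Npl3. The glucan counts in every pair, the chitin counts in Mex67 and all counts in Npl3 do not exceed these shares. MKC7, another yapsin gene of the list, was below 0 in every pair, at -0.97, -0.96 and -0.37.

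**Figure D4:**
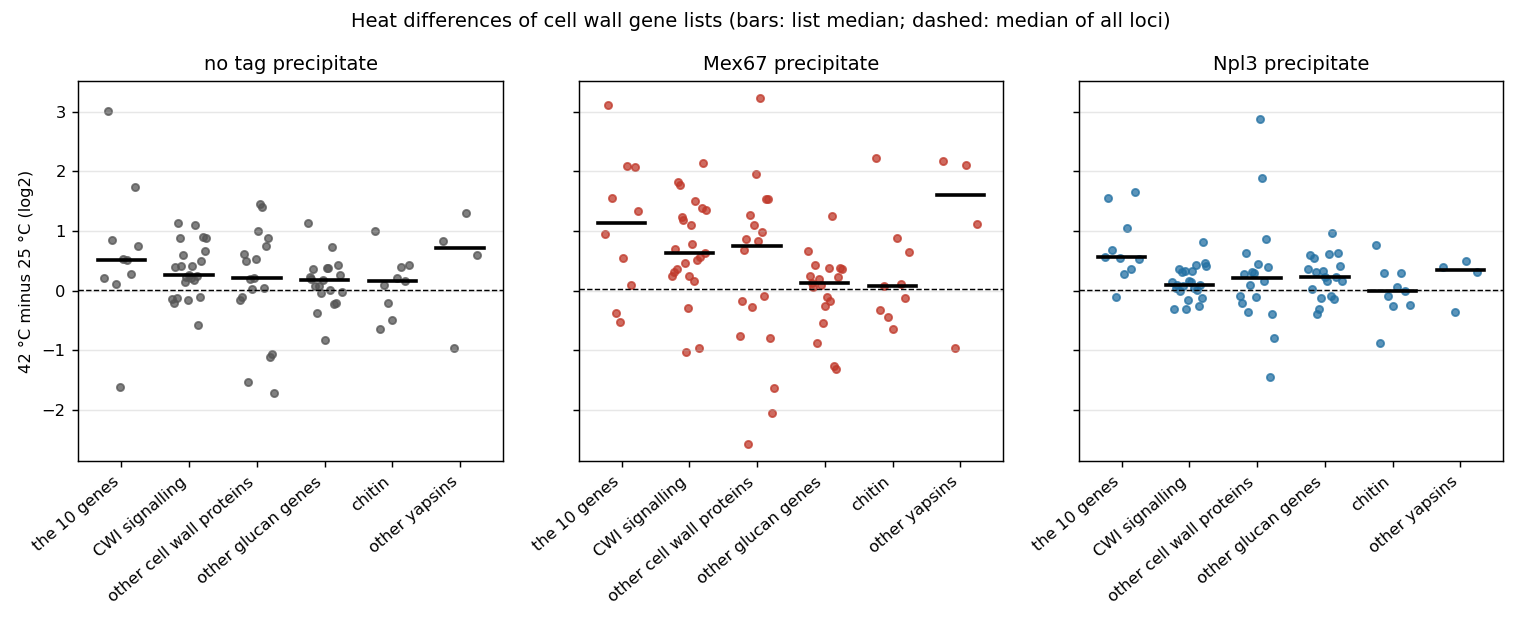
Heat differences (42 °C minus 25 °C, log2, vertical axis) of the 10 genes and of 5 other lists in the no tag, Mex67 and Npl3 precipitates, with 1 point per gene, bars at the list medians and a dashed line at the median of all loci. The other yapsins have a median of 1.61 in Mex67 against 0.72 in no tag and 0.35 in Npl3, and the glucan list medians are 0.12 to 0.23, or -0.18 to 0.23 without the length trend.

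Against no tag, much of the glucan list was lower in Npl3, as FKS1 and GSC2 were. Of its 19 genes 7 were at least 2-fold lower at each temperature, where 15.1% and 19.4% of all loci were, with 3 and 2 higher, where 18.1% and 18.7% were, and medians of -0.73 and -0.78, or -0.40 and -0.52 without the length trend. GAS3 was lowest at 25 °C, at -2.00, and EXG1, a glucanase gene, lowest at 42 °C, at -1.64, while ROT1, a gene of glucan synthesis, was at 1.14 and 1.30. Of the 23 CWI signalling genes 3 and 7 were lower and 2 and 3 higher, with ROM2 at -1.25 at 25 °C, ROM1 at -1.90 at 42 °C, and RLM1 at 2.30 and 1.63. The 3 of 23 lower at 25 °C and the counts higher at both temperatures do not exceed the shares over all loci. The CWI list medians were -0.31 at 25 °C and -0.39 at 42 °C, or 0.17 and -0.08 without the length trend. In Mex67 at 42 °C 1 of 23 was higher, RLM1 at 1.20, and 1 lower, BEM2 at -1.30. Neither count exceeds the shares over all loci, 6.97% and 5.79%. Of the chitin genes CHS1 was at 1.00. The glucan list had 3 of 19 genes at least 2-fold lower there, against 5.79% of all loci. These were SCW10 at -1.26, SCW4 at -1.19 and KRE5 at -1.14. Below 0 were 12 of 19, where 2795 of 5650 loci were. At 25 °C 13 of 19 were below 0, where 2658 of 5632 loci were. KRE5 at -1.08 was the only one past 2-fold, against 0.657% of loci lower by as much.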

How the data were processed

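Log2 values, 1 for each probe set on each array, are what the authors deposited. The tool named per the submitters' processing notes is the R package affy, and how background, normalization and summary were handled is not stated there. The arrays have similar distributions, so values were taken as normalized between arrays, and differences are relative to the other mRNAs of an array. Probe sets of a locus were averaged (47 loci have several). Of 5667 loci, 5646 had their locus tag in a RefSeq table (assembly R64), which gave symbols, lengths and neighbours. WSC1 was matched as SLG1.

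The 10 genes and all lists were chosen with earlier results of these data known. A locus counted if it differed at least 2-fold and exceeded the floor on 1 or more of the arrays compared. The named list genes are the 2 highest and 2 lowest past 2-fold per list and comparison, beside neighbours of the 10 genes (CWP2, PIR5, YPS1) and values of genes named elsewhere. KRE5 and MKC7 were named after their values were seen. The nearest loci are the 3 with the smallest root mean square difference of centred values over 6 arrays, among 5063 loci above the floor on all arrays, with a symbol and a unique probe set. The counting was run on simulated data with shifts set well past the cut, which checks the code and not the precision of these arrays. Alternatives were a floor at each array's median, centring on S. pombe probe sets, quantile normalization over the loci, removal of a lowess trend (span 0.3) with coding length, and unique probe sets only. Python 3.11.15, pandas 2.3.3 and statsmodels 0.14.6 were used. Per the labels, a 3' labelling kit and a whole-transcript manual are both named, and which was used is not clear. Promoter and protein features were not analysed here.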

Additional observations from a re-analysis of the deposited data

Results flagged for a closer look

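CWP1, PIR3 and YPS3 differed in sign between groups under the same contrast, with at least 1 value past 2-fold. Each group is 1 array, so none of these differences was tested. CWP1 had a heat difference of -1.62 in no tag, -0.53 in Mex67 and 0.55 in Npl3, and its Npl3 value over no tag was -1.91 at 25 °C and 0.26 at 42 °C. With the length trend taken out, the value at 42 °C was -0.18. PIR3 in Npl3 over no tag was at 0.14 at 25 °C and -1.32 at 42 °C. YPS3 in Mex67 over no tag was at -0.27 at 25 °C and 1.30 at 42 °C. Such shifts were also seen among the 7 chaperone and stress genes used as a check. In Npl3 over no tag 4 of 7 were below 0 at 25 °C and 7 of 7 at 42 °C, where 2993 of 5639 and 3099 of 5648 loci were. In Mex67 over no tag 5 of 7 were below 0 at 25 °C and 1 of 7 at 42 °C, where 2658 of 5632 and 2795 of 5650 loci were. Any link between these shifts was not tested. These values rest on arrays with labelling spike medians, at 25 °C and 42 °C, of 6.65 and 6.64 (no tag), 6.35 and 5.01 (Mex67) and 5.22 and 5.40 (Npl3), and the part of the spikes was not tested.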

How the results depend on the processing

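The 5 alternatives gave 542 differences of the 10 genes. The 102 under the median floor and the 110 with unique probe sets only could not change. That floor only sets which loci are tested, and each gene is read by 1 unique probe set. Centring could move values little, as the S. pombe medians of the arrays were 3.96 to 4.02. Of all 542, 532 stayed on the same side of 2-fold, and the other 10 all came from removal of the length trend. That removal took the genes past 2-fold from 3 to 1 in Npl3 against no tag at 25 °C and at 42 °C (in both cases the genes lower), from 2 to 1 in Mex67 against Npl3 at 25 °C and from 3 to 1 at 42 °C (the genes higher). Over all loci the same removal took those lower in Npl3 from 853 to 548 and from 1096 to 680, and those higher in Mex67 than Npl3 from 684 to 471 and from 1273 to 900. It turned FKS1 in Npl3 against no tag at 42 °C from -1.08 to 0.045, and brought PIR1 in heated Mex67 from 0.94 to 1.01. The sign of a difference changed in 2 cases with S. pombe centring, 4 with quantile normalization (1 of them to 0) and 10 with the length trend removed. Quantile normalization moved the split of loci higher and lower with heat in no tag from 378 and 117 to 281 and 159, and in Npl3 over control heat from 64 and 243 to 101 and 189. A floor at the array median, which tests fewer loci, took the loci past 2-fold from 495 to 230 (heat, no tag), 1558 to 1019 (heat, Mex67), 197 to 104 (heat, Npl3), 79 to 44 (Mex67 against no tag, 25 °C), 1542 to 1015 (Mex67 against Npl3, 25 °C) and 307 to 171 (Npl3 over control heat). Heat was not fitted with the precipitate as a block, which would take 3 different precipitates as replicates, and no group holds replicates of its own to pair. Between 0 and 3 of 4999 S. pombe probe sets differed 2-fold in comparisons of 2 arrays. These show background noise, not the spread between precipitations. Values near 15 have little room upwards.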
